A study of Mus musculus with 2 samples.

Results

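The 3275 isolated peaks described here are stretches of DNA rich in 5-hydroxymethylcytosine (5hmC) in mouse embryonic fibroblasts at passage 0 that had no other passage 0 peak within 50 kb on either side. They were chosen by position alone, edge to edge, from the 60086 peaks on chromosomes 1 to 19, of which they made up 5.45%, and they covered 2.65 Mb. The other 56811 autosomal peaks are called non-isolated. Any peak of the passage 0 list counted as a neighbour. The cells were derived from C57BL/6 embryos at day 13.5 after conception and grown in DMEM with fetal calf serum. They were harvested at passage 0 or at passage 5, and 1 library was made at each passage. No genetic change or drug is named for either group, and the labels do not say how many embryos were pooled. The lists hold no RNA or protein readout, so the labelled cell type could not be checked against marker genes.

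5hmC is made from 5-methylcytosine by the TET dioxygenases and is an intermediate of active DNA demethylation. It is usually found in gene bodies, at enhancers and at the edges of CpG islands, and it is known to be low in many cultured and fast-dividing cells. The capture used here glucosylates the hydroxymethyl group and tags it with biotin, so that it reports enriched fragments and not single bases.

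Isolated peaks were weaker and narrower than the rest of the list. The score, which the authors deposited on a scale not named in the lists, had a median of 110.4 (quartiles 90.5 and 147) in isolated and 130.4 (97.8 and 194) in non-isolated peaks. Scores rank peaks within 1 list, and those of passage 0 and passage 5 cannot be compared in size. Median widths were 760 bp (659 and 903) and 855 bp (715 and 1058). These values come from the list that chose the members and are a description without a test. Few isolated peaks were among the strongest. Only 98 isolated peaks, 2.99%, were among the 10% of autosomal peaks with the highest scores, against 10.4% of the non-isolated peaks. The 10% with the lowest scores held 14.7% of the isolated and 9.75% of the non-isolated peaks. A score of at least 500 was reached by 7 isolated peaks (0.214%) and by 1169 non-isolated ones (2.06%).

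**Figure D1:**
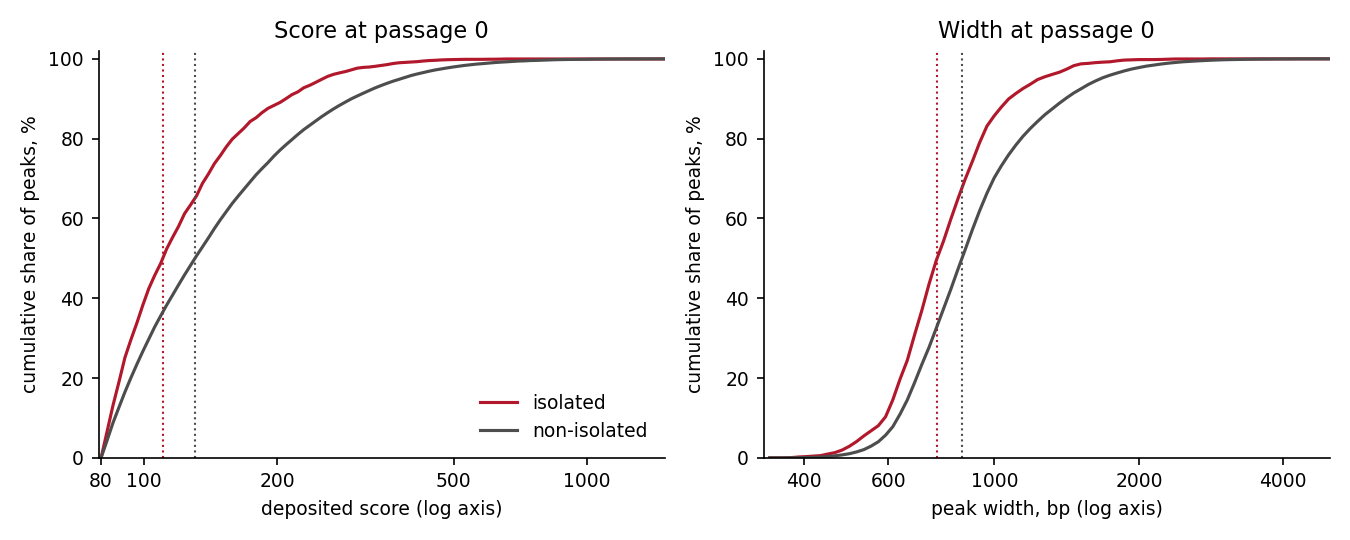
Cumulative share of peaks (y axis, %) up to a given deposited score (left) or width in bp (right) at passage 0, on log axes, for 3275 isolated (red) and 56811 non-isolated (grey) autosomal peaks, with dotted lines at the medians. The red curves lie to the left, with medians of 110.4 against 130.4 for the score and 760 bp against 855 bp for the width.

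Peaks farther from the next peak had lower scores and smaller widths. The median score was 144.7 for peaks with a neighbour within 1 kb, 133.9 at 1 to 5 kb, 125.1 at 5 to 10 kb, 119.8 at 10 to 25 kb and 113.6 at 25 to 50 kb. Beyond the 50 kb limit it was 113.8 at 50 to 100 kb and 105.0 beyond 100 kb. Median width went from 898 bp within 1 kb through 790.5 bp at 25 to 50 kb to 733 bp beyond 100 kb. Across the 50 kb limit the median score hardly changed. Width and score move together, and part of the narrowness remained at like score. In all 10 score classes, cut at the deciles of the isolated peaks, the isolated peaks had the smaller median width. The medians were 652 bp against 656 bp in the lowest class and 958 bp against 1002 bp in the ninth. The highest class, with 1142 bp against 1326.5 bp, has no upper bound, and its non-isolated peaks also had higher scores, with a median of 285.8 against 254.3. Weighted to the scores of the isolated peaks, non-isolated peaks had a mean width of 856 bp against 809 bp, and without the highest class 793 bp against 764 bp. In turn, at like width the mean score was 132.6 for isolated and 138.1 for non-isolated peaks.

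The first members inside the limit were a pair on chromosome 14, 50003 bp apart. One spanned bases 122648571 to 122649302 with a score of 121.4, the other bases 122699306 to 122699984 with a score of 100.6 (build mm9, counted from 1, as for all positions here). The next member inside, on chromosome 4 at bases 136952409 to 136953123, had a score of 89.3 and its neighbour at 50033 bp. Just outside, the peak at bases 102281323 to 102282549 of chromosome 15 had its neighbour at 49987 bp and a score of 150.6. For bases 3325937 to 3327056 of chromosome 10 these values were 49986 bp and 292.2, and for bases 50204320 to 50205462 of chromosome 6 they were 49970 bp and 258.9. These peaks were named by distance alone, and their scores do not stand for the classes on both sides. The median scores there were 113.6 at 25 to 50 kb and 113.8 at 50 to 100 kb.

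Only a small part of the isolated peaks was also called at passage 5. Overlap by 1 base or more with the passage 5 list was found for 204 of the 3275, or 6.23% (exact 95% interval from 5.43% to 7.11%). Over all autosomal passage 0 peaks the share was 7.62%, and over non-isolated peaks it was 7.70% (7.49% to 7.93%). The remaining 3071 isolated peaks, 93.8%, had no passage 5 peak. The passage 5 list was not used to choose the members. Each passage had 1 library, so replicate error is unknown and passages were not tested against each other. Intervals cover the counting error alone and take peaks as independent of each other. The passage 5 list was much shorter, with 6726 peaks against 60157, and the read depth of both libraries is unknown, so a peak outside the passage 5 list cannot be taken to lack 5hmC.

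The lower share of the isolated peaks was not seen once scores and widths were matched. Without matching, the difference of isolated minus non-isolated was -1.48 percentage points (-2.33 to -0.619). Non-isolated peaks were then placed in 10 score by 10 width classes, cut at the deciles of the isolated peaks, and weighted to the isolated peaks' numbers in each. Their share became 5.77%, which left a difference of 0.461 percentage points with an interval of -0.389 to 1.31. The interval includes 0. It also leaves room for a higher share among isolated peaks, by up to 1.31 points. Matching on score alone gave a difference of 0.599 points and matching on width alone 0.222 points. With 5 by 5 classes of score and width the difference was 0.401 points, and with 20 by 20 classes 0.527 points.

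Higher score classes had higher shares in both sets, though not at every step among the isolated peaks. In the lowest score class, from 80.01 to 83.7, 9 of 324 isolated peaks had a passage 5 peak (2.78%), against 2.27% of non-isolated peaks. The third class, from 88.2 to 93.7, had the lowest isolated share, with 3 of 331 (0.906%, 0.187% to 2.63%) against 2.48%. In the sixth class, from 110.4 to 122.2, the shares were 5.78% and 4.80%. In the ninth class, from 158.5 to 209.0, 38 of 327 isolated peaks were shared (11.6%), against 8.62%. In the highest class, from 209.4 upward, the shares were 18.6% (61 of 328) and 18.7%. Scores are not alike in that class, which has no upper bound. Its median score was 254.3 for isolated and 285.8 for non-isolated peaks. The isolated share was the higher one in 6 of 10 classes. In all 10 the non-isolated share lay inside the 95% interval of the isolated one.

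**Figure D2:**
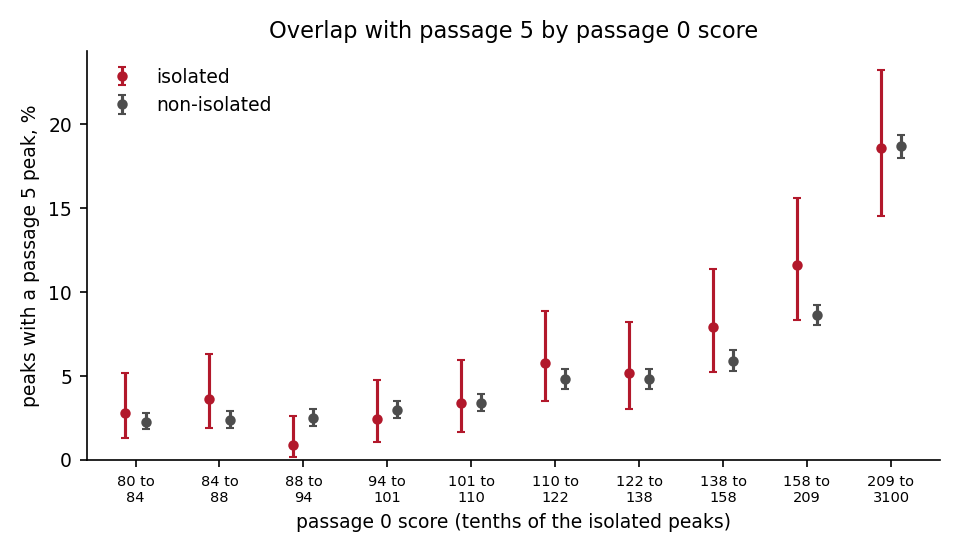
Share of passage 0 peaks that share at least 1 base with a passage 5 peak (y axis, %), in 10 classes of passage 0 score cut at the deciles of the isolated peaks (x axis), for isolated (red) and non-isolated (grey) peaks with 95% exact intervals. The shares are 2.78% and 2.27% in the lowest class and 18.6% and 18.7% in the highest, and the lowest red point is 0.906% in the third class.

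Classes of width gave a less even picture. The non-isolated share lay inside the interval of the isolated share in 8 of 10 width classes. The exceptions pointed in opposite directions. Among the narrowest peaks, of 373 to 590 bp in the isolated set, 22 of 324 isolated peaks (6.79%, 4.30% to 10.1%) were shared with passage 5, against 2.98% of 3090 non-isolated peaks. Median scores in this class were alike, 91.6 and 90.3. In the class of 870 to 939 bp the isolated share was 4.53% (2.56% to 7.36%) and the non-isolated share 7.62%. These classes were singled out from 10 after their values were seen. The 22 narrow isolated peaks had a median passage 0 score of 102.3, and their passage 5 partners were about as wide as they were, with a median width ratio of 0.973. In the same class the 92 shared non-isolated peaks had a median ratio of 0.969.

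The share also changed little along the distance to the next peak once scores and widths were taken into account. As deposited, 8.21% of the peaks with a neighbour within 1 kb had a passage 5 peak, 8.28% at 1 to 5 kb, 7.25% at 5 to 10 kb, 6.67% at 10 to 25 kb and 6.41% at 25 to 50 kb. Among isolated peaks the share was 6.52% (5.49% to 7.67%) at 50 to 100 kb and 5.74% (4.49% to 7.20%) beyond 100 kb. Weighted to the scores and widths of the isolated peaks, the 5 non-isolated distance classes had shares of 5.31%, 6.05%, 5.74%, 5.63% and 6.03%, in order of distance. Against these the isolated peaks differed by 0.915 points from the class within 1 kb, with an interval of 0.00474 to 1.82, and by 0.171 to 0.596 points from the other 4 classes, whose intervals included 0.

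**Figure D3:**
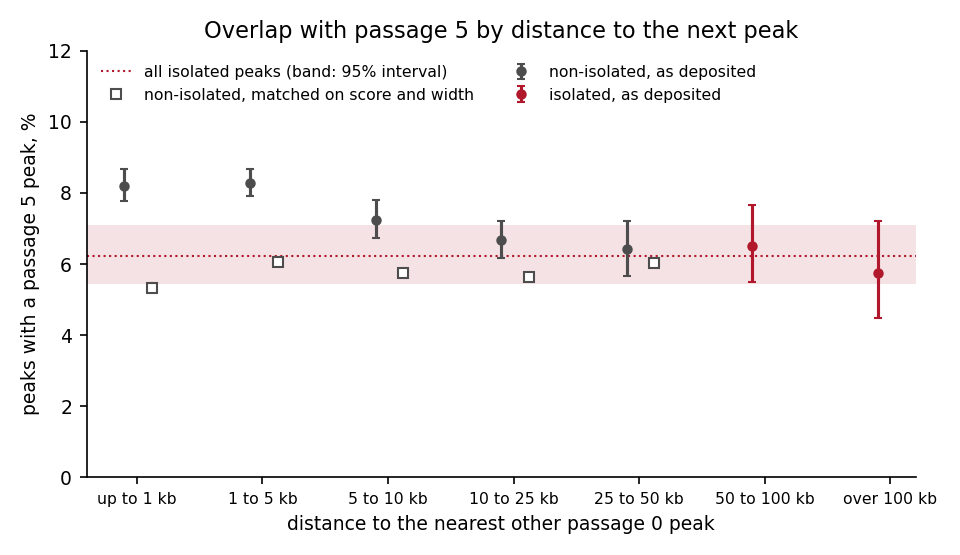
Passage 0 peaks that overlap a passage 5 peak (y axis, % of each class) by distance to the nearest other passage 0 peak (x axis), as deposited for non-isolated (grey) and isolated (red) peaks with 95% exact intervals, and for non-isolated peaks weighted to the scores and widths of the isolated peaks (open squares). The dotted line and band mark the 6.23% of all isolated peaks and its interval. The grey points fall from 8.21% to 6.41%, and the squares stay between 5.31% and 6.05%.

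Where an isolated peak was shared, the passage 5 peak was usually the narrower one. The best-scoring passage 5 partner had a median width of 564 bp, and its width was a median of 0.669 times that of the passage 0 peak (quartiles 0.543 and 0.803). Midpoints were a median of 81.5 bp apart. The passage 5 peak lay wholly inside the isolated peak in 126 of 204 cases (61.8%, 54.7% to 68.5%), reached past an edge in the others and was the wider one in 17. For the 4377 shared non-isolated peaks the median width ratio was 0.558, and 78.0% of the partners lay wholly inside. Non-isolated peaks are wider. At like passage 0 score and width, in 5 by 5 classes cut at the quintiles of the shared isolated peaks, the mean ratios were 0.695 for isolated and 0.671 for non-isolated peaks. The partners ranked alike in the passage 5 list, with median scores of 119.2 in both sets and median percentiles of 54.3 and 53.8.

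Shared isolated peaks were stronger than the other isolated peaks. At passage 0 they had a median score of 155.1 (quartiles 113 and 225), and the 3071 others had one of 108.5 (90.2 and 142.6). Median widths were 840.5 bp and 753 bp. The distances to the next passage 0 peak were close, with medians of 75.9 kb and 81.6 kb.

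Most of the shared isolated peaks were solitary at passage 5 too. Of the 204 best-scoring partners, 180 (88.2%, 83.0% to 92.3%) had no other passage 5 peak within 50 kb. Among the partners of non-isolated peaks this held for 39.9%. The rule largely sets this difference in advance. Another passage 5 peak within 50 kb of an isolated peak's partner can hardly overlap a passage 0 peak other than the isolated one. Of the autosomal passage 5 peaks, 4688 overlapped a passage 0 peak and only 2012 did not. The difference is therefore a description.

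Passage 5 peaks at other sites were less frequent around isolated peaks than around other peaks. A passage 5 peak that overlapped no passage 0 peak lay within 50 kb of 236 isolated peaks, which is 7.21% (6.34% to 8.15%). Over all autosomal passage 0 peaks the share was 15.0%. Non-isolated peaks of like score and width had 15.0% as well, and the difference was -7.82 percentage points (-8.76 to -6.87). Local peak density, which the rule itself lowers, was not matched. The 1 Mb window of an isolated peak held a median of 17 passage 0 peaks, against 50 for a non-isolated peak. Within 10 kb the shares were 1.92% for isolated and 3.84% for non-isolated peaks, against 3.73% over all autosomal peaks. Neighbouring non-isolated peaks can count the same passage 5 peak more than once. Each base between adjacent passage 0 peaks was therefore assigned to the nearer one. The space within 50 kb of isolated peaks then held 216 such passage 5 peaks in 286.8 Mb, or 0.753 per Mb (0.656 to 0.861, exact Poisson interval). The space nearest to non-isolated peaks held 1507 in 1001 Mb, or 1.51 per Mb (1.43 to 1.58).

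The density near isolated peaks was lower at short distances and approached that near other peaks farther out. At 1 to 5 kb it was 1.19 per Mb (0.806 to 1.68) near isolated and 2.10 per Mb (1.93 to 2.28) near non-isolated peaks. At 10 to 25 kb the values were 0.766 (0.602 to 0.960) and 1.21 (1.08 to 1.34). At 25 to 50 kb they were 0.648 (0.514 to 0.806) and 0.831 (0.700 to 0.978), and these intervals overlap. Within 1 kb only 3 passage 5 peaks were counted next to isolated peaks.

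**Figure D4:**
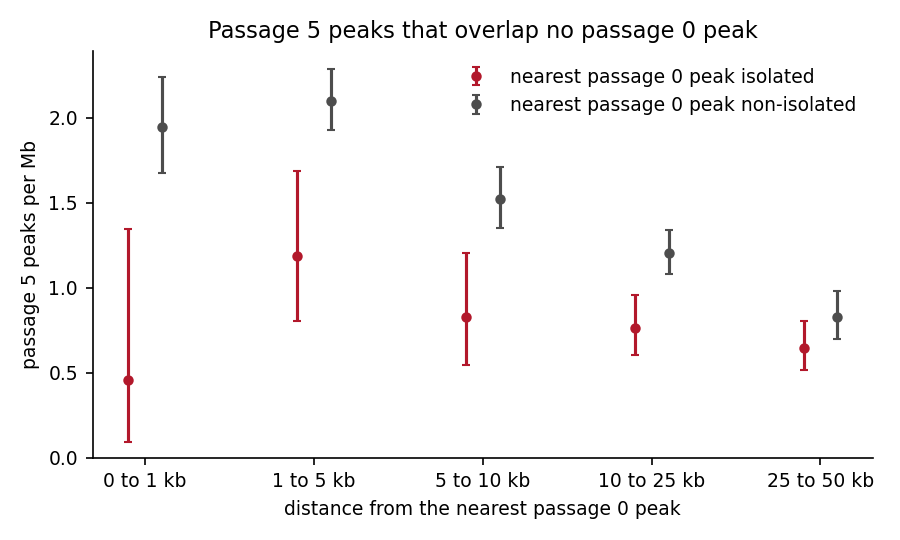
Passage 5 peaks that overlap no passage 0 peak, per Mb of the space between passage 0 peaks (y axis), by distance from the nearest passage 0 peak (x axis), split by whether that peak is isolated (red) or not (grey), with 95% exact Poisson intervals. The red points lie below the grey ones at each distance, and the intervals overlap only at 25 to 50 kb.

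Isolated peaks were present on every autosome. There were 1.37 per Mb over all autosomes, from 1.05 on chromosome 7 to 1.65 on chromosome 9, a range of 1.58-fold. For all passage 0 peaks the range was 1.66-fold. The isolated share of a chromosome's peaks varied 2.01-fold. It was highest on chromosome 1 (7.30%, 6.50% to 8.15%), chromosome 12 (7.11%) and chromosome 16 (6.86%), and lowest on chromosome 17 (3.63%, 2.95% to 4.42%), chromosome 19 (3.90%) and chromosome 8 (4.33%). Chromosomes with more peaks per Mb had a lower isolated share, with correlation coefficients of -0.75 (Spearman) and -0.76 (Pearson) over 19 chromosomes. Both quantities come from the same peak positions, so the relation is a description. The share of isolated peaks with a passage 5 peak ran from 2.33% on chromosome 18 (3 of 129, 0.482% to 6.65%) to 11.0% on chromosome 19 (8 of 73, 4.85% to 20.5%). It was below that of the chromosome's non-isolated peaks on 16 of 19 chromosomes, before any matching on score and width.

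Along the chromosomes, isolated peaks were spread more evenly than other peaks, which the rule favours by barring any other peak within 50 kb. The span from the first to the last peak of each chromosome was cut into 5 equal sections. From the centromere-near start of the mouse chromosomes to their distal end, these held 684, 679, 591, 688 and 633 isolated peaks. As a share of the peaks there, this was 8.38%, 6.63%, 5.45%, 5.60% and 3.41%. Isolated peaks were found in 1616 of the 2102 autosomal 1 Mb windows with any passage 0 peak, and the window of an isolated peak held a median of 17 passage 0 peaks, against 50 for a non-isolated peak. The lower window median also follows in part from the rule, so these placements are a description. Not all isolated peaks lay in sparse regions, and 822 of them, 25.1%, were in windows with over 30 peaks.

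In windows with 2 to 5 passage 0 peaks, a near neighbour went with a higher passage 5 share. In the 270 windows with 2 to 5 passage 0 peaks, 20 of 451 isolated peaks had a passage 5 peak (4.43%, 2.73% to 6.77%), against 50 of 440 non-isolated peaks (11.4%, 8.55% to 14.7%). At like score and width in 5 by 5 classes the difference was -5.81 percentage points (-9.39 to -2.23). A single window on chromosome 2, whose highest scores exceeded 1000, supplied 4 of these 50 peaks. Without that window the non-isolated share was 10.6% (7.83% to 13.8%). The matched difference still includes that window. In windows with 6 to 15, 16 to 30 and over 30 peaks, the matched differences were -0.661, 0.0205 and 0.366 points, and their intervals included 0. Of the 159 isolated peaks alone in their window, 14 were shared (8.81%, 4.90% to 14.3%). Of the 6 non-isolated peaks alone in their window, 0 were shared, too few for a comparison. The window classes were compared after the results over all windows were known, and adjacent peaks of a window are not independent.

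**Figure D5:**
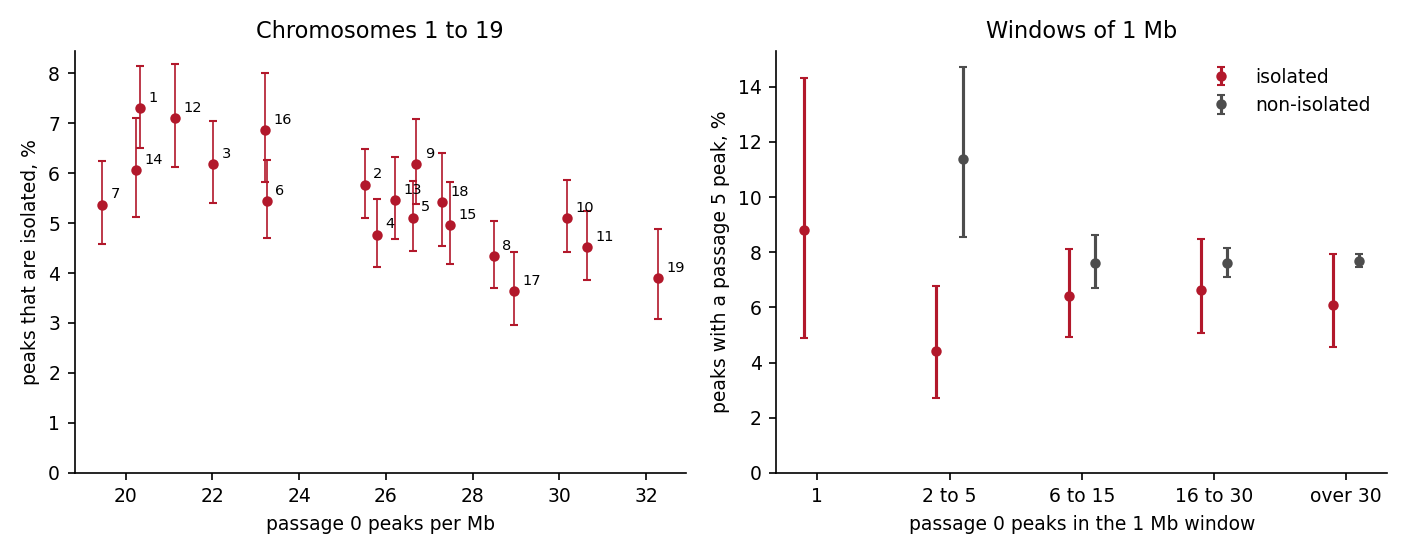
Left, share of each autosome's passage 0 peaks that are isolated (y axis, %) against passage 0 peaks per Mb (x axis), with chromosome numbers and 95% exact intervals. Right, share of peaks with a passage 5 peak (y axis, %) by the number of passage 0 peaks in the 1 Mb window (x axis), for isolated (red) and non-isolated (grey) peaks with 95% exact intervals; the 6 non-isolated peaks alone in their window are not drawn. The intervals are apart only in windows of 2 to 5 peaks, at 4.43% and 11.4%.

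The next peak after an isolated one was often isolated as well. This held on at least 1 side for 2282 isolated peaks, 69.7%, while 5.45% of all autosomal peaks were isolated. The rule raises this share, since such a neighbour already has a gap of over 50 kb on the shared side. The runs are therefore a description. There were 103 runs of at least 5 isolated peaks in a row, with 625 peaks in all, of which 34 (5.44%, 3.80% to 7.52%) had a passage 5 peak. For isolated peaks outside such runs the share was 6.42% (5.51% to 7.42%). These shares were not matched on score and width. Median scores were 104.75 in the runs and 111.2 outside them, and median widths 732 bp and 767 bp. The longest runs had 10 peaks each and occurred 4 times. That on chromosome 3, at bases 69963744 to 78767234, spread its 10 peaks over 8.80 Mb with scores of 80.9 to 254.5, and none was called at passage 5. That on chromosome 12, at bases 60299795 to 68992996, covered 8.69 Mb with scores of 81.1 to 269.3, and 2 were called at passage 5. Another on chromosome 6, at 8541479 to 15131740, had 1 shared peak. The last on chromosome 17, at 57140416 to 61251380, had 0. Together 3 of these 40 peaks were shared (7.5%, 1.57% to 20.4%), against 7.62% over all autosomal peaks.

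Distances to the next peak had a long tail. The median was 81.3 kb (quartiles 61.4 and 129.6), 2072 members had their nearest neighbour within 100 kb, and 35 had none within 1 Mb. The most remote lay on chromosome 17 at bases 94401194 to 94401931, 3.20 Mb beyond its only neighbour as the last peak of that chromosome. It had a score of 132.7. Bases 111648608 to 111649344 of chromosome 14 came next, with 3.04 Mb and a score of 102.8. They were followed by bases 16333890 to 16334692 of chromosome 15, with 2.98 Mb and a score of 98.2, and by bases 48049838 to 48050512 of chromosome 7, with 2.69 Mb and a score of 84.2. These 4 peaks were 675 to 803 bp wide and had no passage 5 peak. The nearest passage 5 peaks to them were 3035 to 5294 kb away. Of the 35 peaks with no neighbour within 1 Mb, 1 was shared with passage 5, and 35 are too few for a comparison of shares. Over all peaks with the next peak beyond 100 kb the share was 5.74%, and over all autosomal peaks 7.62%. The shared one was the fifth most remote.

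That peak was also the strongest and the widest of all members. It lay on chromosome 17 at bases 39979521 to 39985919, 2.47 Mb from the next passage 0 peak, and had a width of 6399 bp and a score of 3100. Its passage 5 partner, at 39979819 to 39985919, was 6101 bp wide and had a score also written as 3100. This was the highest score among the passage 5 partners, but it was not unique. The highest score among the partners of non-isolated peaks was 3100 as well. Whether this stretch is a repeated sequence, at which reads from many copies would add up, was not tested, since no mm9 sequence or annotation was used. The second highest isolated peak, on chromosome 15 at 74915778 to 74917621, was 1844 bp wide with a score of 2148 and had a passage 5 partner of 1087 bp with a score of 1075 in that list. These were the only 2 isolated peaks with a score of at least 1000. With peaks of that score left out of both sets, the share of isolated peaks with a passage 5 peak was 6.17%. Whether such scores reflect 5hmC or reads piled up for other reasons was not tested, since no reads or input control were used here.

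Below these 2, scores fell to 652 and less. The third, on chromosome 3 at 94484299 to 94485482, had a score of 651.6 and a passage 5 partner of 599 bp, which scored 100.7 in the passage 5 list. The fourth member with a partner by score, on chromosome 6 at 103598904 to 103599394, was narrow. It was 491 bp wide with a score of 471.6, and its passage 5 partner covered nearly the same bases, 103598899 to 103599395, and scored 632.6 in its own list. The fifth, on chromosome 2 at 154215653 to 154216739, had a score of 463.7 and a partner of 808 bp, scored 201.8 at passage 5.

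The strongest isolated peaks without a passage 5 peak were wide ones. Bases 55258156 to 55259650 of chromosome 1 had the highest score, 623.9, over 1495 bp, and no passage 5 peak was closer than 350.0 kb. Bases 72335253 to 72336650 of chromosome 13 had a score of 582.2, bases 46510968 to 46513320 of chromosome 9 one of 519.3, bases 15492927 to 15494289 of chromosome 6 one of 512.5 and bases 39161874 to 39164157 of chromosome 1 one of 494.0. The widths of the latter ran from 1363 to 2353 bp, and their nearest passage 5 peaks were 83.6 to 538.6 kb away. Among the 5 widest members was also the peak at bases 49425670 to 49428487 of chromosome 2, with 2818 bp, a score of 415.6 and the nearest passage 5 site at 6.98 kb. The peak at bases 142314456 to 142316781 of chromosome 6 was 2326 bp wide, with a score of 388.6 and a passage 5 partner of 750 bp.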

How the data were processed

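The authors deposited 1 peak list per passage with a position, a running name and a score for each peak; the score is the authors' value on a scale the lists do not name. CASAVA 1.8, Bowtie 0.12.7, MACS 1.4.1 and the build mm9 are named, per the submitters' processing notes, with no step assigned. The sources used here give neither peak threshold, input control nor read depth. Isolation required more than 50000 bases to every other passage 0 row, and 71 peaks outside chromosomes 1 to 19 were left out as members. Overlap needed 1 shared base and equalled the count of bedtools 2.31.1. Matched shares are direct standardisations with intervals of 1.96 standard errors. No test was run. Scripts were tested on simulated lists.

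Members, comparisons and the rule for named regions (highest-scoring with and without a passage 5 peak, most remote, widest, at the distance limit) were chosen with earlier results of these data known. Alternatives were other distances, scores, overlaps, classes, merged peaks and chromosome ends. Gene features, CpG content and sequences of the peaks were not analysed here, because the gene table at hand is of another build. Python 3.11.15, numpy 2.4.6, pandas 2.3.3, scipy 1.17.1 and matplotlib 3.10.9 were used.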

Additional observations from a re-analysis of the deposited data

How the results depend on the processing

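Of 40 recomputed values for 6 results, 30 stayed within the interval of the reported value and 10 moved beyond it. For numbers of peaks the limit was 1.5-fold. A change of direction was looked for only in the differences in median score and width, and 0 of these reversed. The matched difference, whose reported interval included 0, changed sign when a passage 5 peak within 500 bases counted as shared. The number of isolated peaks was 7253 at a distance of 25 kb and 1203 at 100 kb, by construction. At 100 kb the differences in median score and width, isolated minus non-isolated, were -24.7 and -120 bp against -20.1 and -95 bp as reported; with passage 0 peaks within 1 kb merged they were -22.8 and -118 bp. With passage 0 scores of at least 100, isolation was found anew in the shorter list, which gave 3454 isolated peaks. Of these 8.02% had a passage 5 peak, and the matched difference there was 0.147 points (-0.797 to 1.09). For passage 5 scores of at least 100 the share was 5.01%, where fewer sites could be shared. The share with another passage 5 peak nearby was 5.31% for passage 5 scores of at least 100 and 1.92% within 10 kb. The difference matched on score and width ran from -0.230 points (passage 5 peak within 500 bases) to 0.599 (score alone), was above 0 in 15 of 16 alternatives, and had an interval including 0 in all 16. Leaving out scores of 1000 or more, peaks as narrow as the narrowest 10% of the isolated ones, or windows of up to 5 peaks was chosen after seeing the data. No paired analysis was possible because each passage has 1 library. Gene feature and CpG alternatives were not run.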
